A study of Mus musculus with 17 samples.

Results

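The genes described here are the mouse zinc finger genes that carry only a number after the Zfp stem, read in spleen RNA. They were chosen by name and by mean level in the deposited expression table: every gene named Zfp followed by digits, without Zfp36, whose product binds RNA, that had a mean of at least 3 CPM (the depth-normalized read count of the table) over 17 libraries. Of 338 such names, 221 met this level, 117 lay under it, and 8 of those 117 had no read in any library. All 221 passed the filter on low values and are accounted for below. The table held 38340 named genes after unnamed and repeated lines were set aside, and 14012 of them were tested. The mean runs over treated and control libraries alike, and 2 members, Zfp365 and Zfp697, had control means under 3 CPM (1.1 and 0.776 CPM over 5 libraries), so they met the rule through the groups where they were high and their rises are descriptions. The group was also proposed after earlier results of these data were known, so its counts are descriptions too. At the edge of the level rule, Zfp239 (3.01 CPM) was just inside and Zfp623 (2.88 CPM) just outside.

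The study concerned activation of RIG-I, a cytosolic sensor of double-stranded RNA, by short RNA ligands. Mice of the strain written CB57BL/6NCrl in the labels received SLR10, SLR14, poly(I:C) or pppNS (3 spleens each) or the transfection vehicle jetPEI alone (2 spleens), and 3 untreated mice, called naive, gave spleens as well. SLR10 and SLR14 are stem-loop RNAs, SLR14 with the longer stem, and poly(I:C) is a long synthetic double-stranded RNA; what pppNS stands for is not given in the labels. One protocol text stands on all libraries and names the SLRs, complexed with in vivo-jetPEI and given intravenously at 25 µg of RNA per mouse; the dose of the other RNAs, the time after injection, and the age and sex of the mice are not given in the sources used here. The design text counts the libraries as replicate spleens, and p-values measure the spread between these spleens. Vehicle had 2 libraries, and each comparison of an RNA with vehicle used the same 2.

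Most numbered Zfp genes encode C2H2 zinc finger proteins, in which tandem fingers each hold a zinc ion between a pair of cysteines and a pair of histidines and read DNA bases. Many also carry a KRAB domain, which recruits the scaffold Trim28 and through it the histone methyltransferase Setdb1, and many of these KRAB proteins silence retroelements through heterochromatin. In spleen, other C2H2 factors without KRAB take part in lymphocyte and progenitor programmes.

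Translated coding sequences gave 112 genes with a KRAB A box and at least 3 fingers, 84 with at least 3 fingers and no KRAB box, 24 with fewer than 3 fingers, and 1 pseudogene, Zfp783, with no protein. The median was 10 fingers and the range 0 to 36. The genes lay on many chromosomes, with 50 on chromosome 7, 28 on chromosome 17, 20 on chromosome 13 and 18 on chromosome 8, and 101 of them had another numbered Zfp gene as a neighbour. Mean levels ran from 3.01 to 159 CPM with a median of 10.9 CPM. Libraries held 26453585 to 42775104 reads, and 1 read was worth 0.0175 to 0.0431 CPM, far below the mean of any member.

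Type I interferon induces genes through the interferon-stimulated response element (ISRE), so the 250 bases before each start site were searched for GAAANNGAAA on either strand, with sequences from RefSeq (build GRCm38.p6). A start site was matched for 182 of the 221 genes. The motif stood before 3 of them (1.65%), against 3.46% of all 27025 genes with a listed promoter and 6 of 8 genes (75.0%) of a fixed panel of interferon-response genes. The 3 windows, on the strand of the gene with the motif in capitals, are shown because they are all the matches among the members.
Zfp213, chr17:23564386-23564415, minus strand: gtgcgacccaGAAAGCGAAAatgagacttc
Zfp420, chr7:29859946-29859975, plus strand: cagaacgccgTTTCCGTTTCctggcgagag
Zfp169, chr13:48513633-48513662, minus strand: ttctgcttttTTTCTGTTTCtctaagatct
The motif lay on the gene's own strand in Zfp213 and on the other strand in the other two. Of these genes, Zfp213 rose after SLR10, SLR14 and poly(I:C), Zfp420 fell after SLR10 and SLR14, and Zfp169 passed no test, as given below. The 250 bases before the start of the member with the highest rise and of the member with the deepest fall, shown for that reason, hold no ISRE.
Zfp365, chr10:67912663-67912912, minus strand: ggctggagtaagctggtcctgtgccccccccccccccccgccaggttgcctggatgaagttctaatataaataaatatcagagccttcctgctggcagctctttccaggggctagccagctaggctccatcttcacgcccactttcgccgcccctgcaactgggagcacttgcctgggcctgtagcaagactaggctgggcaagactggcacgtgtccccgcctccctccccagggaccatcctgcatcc
Zfp467, chr6:48445091-48445340, minus strand: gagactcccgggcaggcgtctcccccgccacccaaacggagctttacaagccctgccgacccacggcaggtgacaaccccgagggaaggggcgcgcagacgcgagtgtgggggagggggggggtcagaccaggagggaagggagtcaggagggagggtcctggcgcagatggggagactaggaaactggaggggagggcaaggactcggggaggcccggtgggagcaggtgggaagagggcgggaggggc
A second interferon-pathway motif, the GAS element TTCNNNGAA, which reads alike on both strands, stood in the same window of 28 of the 182 genes (15.4%) and of 8.13% of all listed genes. These are matches of letters, and binding was not measured.

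All 10 genes of the interferon panel rose after each of the 4 RNAs, among them Cxcl10, a chemokine gene, from 22.0 CPM in vehicle to 2947 CPM after SLR10 and 923 CPM after pppNS. The numbered zinc finger genes split in both directions under the same treatments. After SLR10, 22 rose and 49 fell (limma, Benjamini-Hochberg adjusted p below 0.05), in a comparison where 20.2% of all tested genes rose and 19.2% fell (39.4% in all). After SLR14, 20 rose and 48 fell, with 19.3% and 19.4% of all genes (38.7%), and after poly(I:C), 20 rose and 47 fell, with 18.6% and 17.3% of all genes (35.9%). In shares, 9.95% of the members rose and 22.2% fell after SLR10, so the share that rose was about 10 percentage points under that of all genes and the share that fell was close to it. Against 10302 other genes within the same range of mean CPM, the members' median log2 difference was -0.13 and theirs 0.02 after SLR10, -0.15 and 0.07 after SLR14, and -0.20 and 0.10 after poly(I:C). The gap between the medians, -0.15 for SLR10, was -0.069 without vehicle replicate 2, and the gap of -0.21 for SLR14 was -0.092 without SLR14 replicate 2. The vehicle libraries moved these counts: fewer members fell after SLR10, SLR14 and poly(I:C) without vehicle replicate 1 or without vehicle replicate 2. Such a fit leaves 1 vehicle library, and the share of all genes called in it is not given here. The drop is therefore not a result about the members.

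Counted by libraries that do not overlap, 59 members stood above both vehicle libraries and 105 below in all SLR10 spleens, where 40.1% and 40.6% of all genes did so. After SLR14, 40 stood above and 95 below (35.2% and 32.8% of all genes), and after poly(I:C), 36 and 93 (33.4% and 30.4%). After pppNS, 14 stood above and 93 below (22.9% and 19.9% of all genes). Vehicle against naive gave 91 members above and 23 below (24.9% and 27.5% of all genes).

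By structure, KRAB genes and genes with few fingers had more falls than rises, and C2H2 genes without KRAB had similar counts of both. Among the 112 KRAB genes, 6 rose and 31 fell after SLR10, 5 rose and 29 fell after SLR14, and 6 rose and 27 fell after poly(I:C), with medians of -0.32, -0.34 and -0.37. Fewer KRAB falls were called without vehicle replicate 2, in a fit that leaves 1 vehicle library and has no share of all genes beside it. Among the 84 C2H2 genes without KRAB, 13 rose and 10 fell after SLR10, 12 rose and 11 fell after SLR14, and 11 rose and 14 fell after poly(I:C), with medians of 0.04, -0.01 and -0.07. The 24 genes with fewer than 3 fingers gave 3 rises and 8 falls after SLR10 and after SLR14, and 3 and 6 after poly(I:C), with medians of -0.19, -0.18 and -0.06. As shares, 27.7% of KRAB genes, 11.9% of C2H2 genes without KRAB and 33.3% of genes with fewer than 3 fingers fell after SLR10, beside 19.2% of all genes. These shares are not matched for level, and values by level class are given below. The difference between the KRAB and other classes was not tested, since the classes were compared with results already in view. Genes outside the numbered name set that also encode a KRAB box and 3 or more fingers, at 3 CPM or more, numbered 26, and of these 0 rose and 11 fell after SLR10 (limma, with a median of -0.51), 0 rose and 10 fell after SLR14 and 0 rose and 9 fell after poly(I:C).

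**Figure D1:**
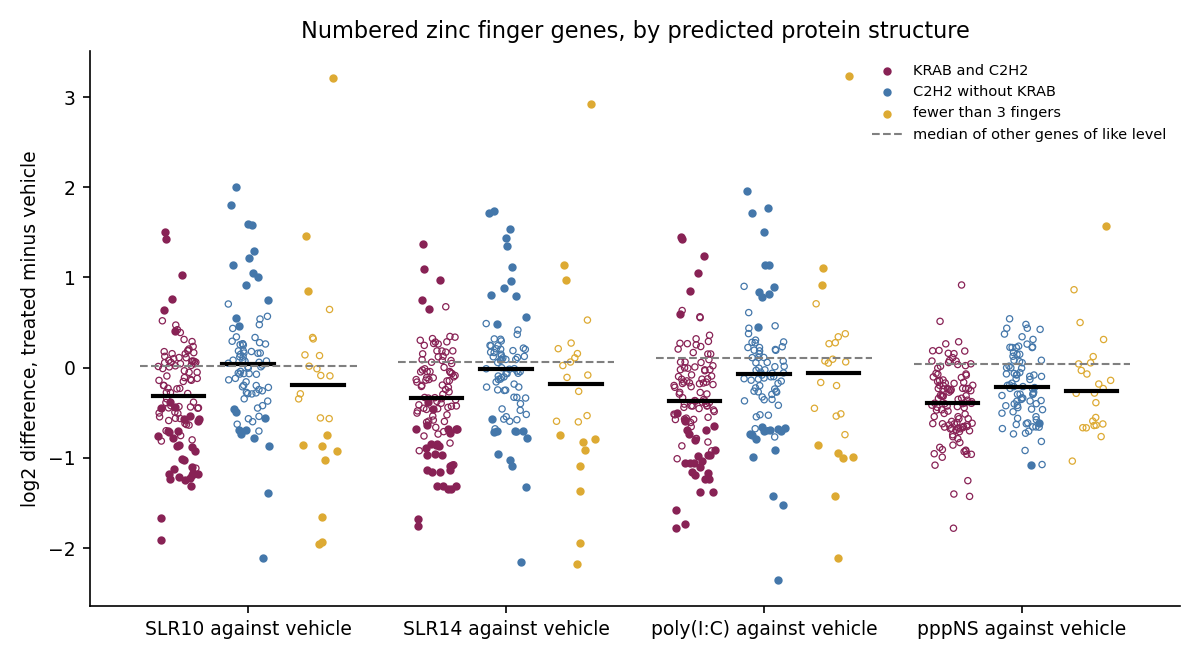
Log2 difference of each numbered zinc finger gene from vehicle after each RNA, by predicted structure; filled points passed the test, open points did not, black bars are group medians and the dashed line is the median of other genes of like level. The KRAB group sits lowest after SLR10 (median -0.32), SLR14 (-0.34) and poly(I:C) (-0.37), and 1 gene, Zfp365, stands above all others.

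Weakly expressed genes of both kinds, members and others, leaned lower after treatment. After SLR10, the 45 members with means of 3 to 5 CPM had a median of -0.53 and 971 other genes of that class -0.41; in the class of 5 to 10 CPM the medians were -0.44 and -0.28. From 10 to 20 CPM the members stood at 0.01 and the others at -0.10, and at 20 CPM or more the medians were 0.14 and 0.18. The share that fell was 31.1% of members and 31.6% of other genes at 3 to 5 CPM, so in that class the members fell as often as the rest. After poly(I:C) the medians were -0.55 against -0.28 at 3 to 5 CPM and 0.06 against 0.28 at 20 CPM or more, so the members lay under the others at both ends of the range. KRAB genes were concentrated at low levels, with 66 of the 112 under 10 CPM.

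**Figure D2:**
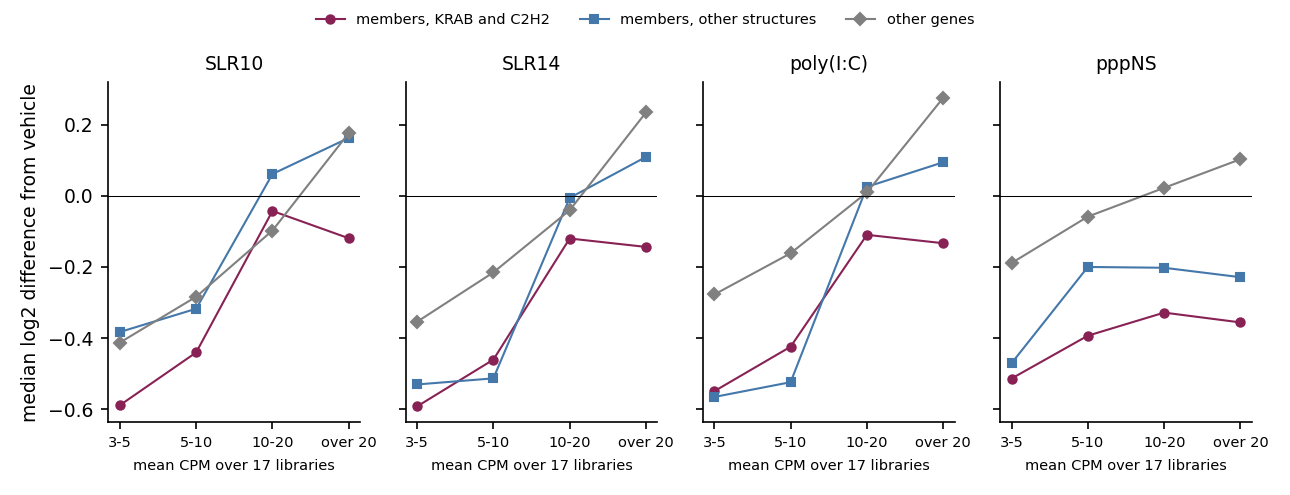
Median log2 difference from vehicle in 4 classes of mean CPM for KRAB genes, the other numbered zinc finger genes and other genes. After SLR10, SLR14 and poly(I:C) all 3 lines rise from the lowest class to the class of 10 to 20 CPM, and after SLR10 the other genes start at -0.41 and end at 0.18.

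KRAB genes that lay beside another numbered Zfp gene (77) had a median of -0.42 after SLR10, with 3 rises and 24 falls, and the 35 others had a median of -0.12, with 3 rises and 7 falls. Of all genes, 20.2% rose and 19.2% fell. The sets were not matched for level, and KRAB medians ran from -0.59 at 3 to 5 CPM to -0.04 at 10 to 20 CPM. The difference between the sets was not tested. After poly(I:C) the same sets gave -0.42 and -0.15. Reads that fit several near-identical finger arrays can be lost or shared by read counting, and how the authors treated them is not given in the sources used here, so levels of clustered members are uncertain to that extent.

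The choice of control moved the group. The members stood higher in vehicle than in naive spleens, with a median log2 difference of 0.19 against -0.02 in the other genes of like level, yet no member passed the test (0 rose and 0 fell by limma, edgeR and DESeq2, with 25 members at an unadjusted p under 0.05; 0.0143% of all genes rose and 0.0357% fell, 0.05% in all). The count of 0 depends on the spread shared by all 6 groups. Some members were called in a fit without 4 erythroid-rich libraries, described below, none of which is a vehicle or naive library. Vehicle replicate 2 held the highest level of all 17 libraries for 57 of the 221 genes (25.8%), against 7.65% of other genes. With naive spleens as the control, the members' medians became -0.00 after SLR10, -0.01 after SLR14 and -0.06 after poly(I:C), while other genes stood at -0.01, 0.00 and 0.08. The counts were then 43 rises and 53 falls, 40 and 52, and 36 and 53, where 25.7% and 23.6%, 24.7% and 22.8%, and 24.9% and 21.1% of all genes rose and fell. KRAB genes gave 12 rises and 31 falls against naive after SLR10, 11 and 29 after SLR14, and 13 and 31 after poly(I:C), with medians of -0.09, -0.15 and -0.16, smaller in size than the -0.32, -0.34 and -0.37 against vehicle, and C2H2 genes without KRAB had more rises than falls, at 25 and 15, 22 and 15, and 18 and 15. After pppNS, 6 members rose and 8 fell against naive, where 6.06% and 4.83% of all genes did.

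Single libraries also moved the group. The KRAB genes' median, set against the other genes and against the naive mean, was -0.56 in pppNS replicate 3, -0.45 in SLR14 replicate 2, and -0.36 and -0.37 in poly(I:C) replicates 2 and 3. In the other 13 libraries it lay between -0.13 and 0.30. The same 4 libraries held the most erythroid transcripts, with 20060 to 72937 CPM summed over the 10 of 12 erythroid markers in the table, against 2929 to 12593 CPM in the other 13, and none of the 10 was at 0 in any group. Summed proliferation markers (10 genes) ran from 316 to 2375 CPM after SLR14, 297 to 3346 CPM after poly(I:C) and 970 to 1899 CPM after pppNS, with 317 to 358 CPM after SLR10, 299 to 368 CPM in vehicle and 504 to 611 CPM in naive spleens. Their part in the result was not tested. Fewer cells of a type and less RNA per cell cannot be told apart in whole spleen. Without those 4 libraries, and with 1 poly(I:C) spleen left that is assumed to vary like the others, KRAB genes gave 11 rises and 52 falls after SLR10, 10 and 43 after SLR14, and 11 and 27 after poly(I:C), with medians of -0.32, -0.27 and -0.16. Calls of other genes of like level grew in that fit as well: after SLR10 3120 of 10302 rose and 3014 fell, where all 17 libraries gave 2065 and 1746, and no SLR10 library was among the 4.

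**Figure D3:**
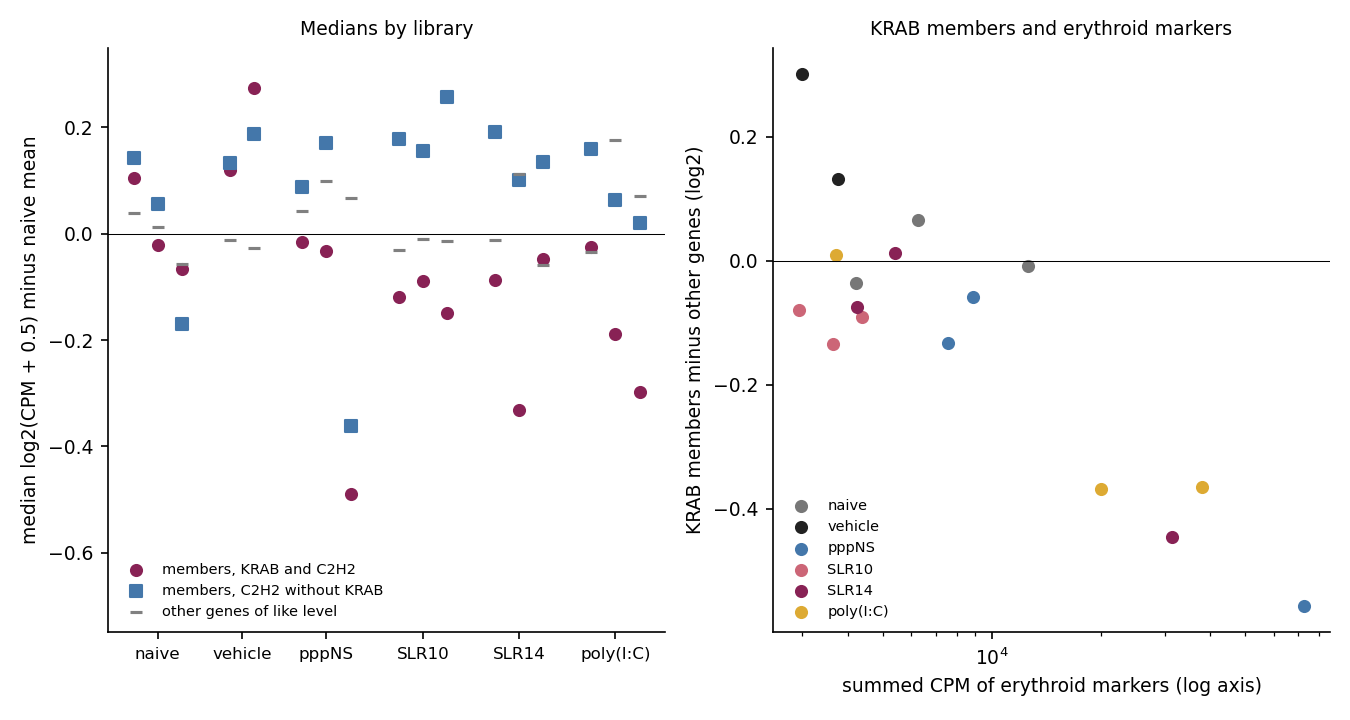
Left, the median log2(CPM + 0.5) level of KRAB genes, C2H2 genes without KRAB and other genes of like level in each of 17 libraries, minus the naive mean; right, KRAB genes minus other genes against the summed erythroid marker CPM on a log axis. The 4 libraries with 20060 CPM or more of erythroid transcripts lie lowest, at -0.56 to -0.36.

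Markers of other cells moved as well. T cell markers (12 genes) gave 0 rises and 7 falls after SLR10, SLR14 and poly(I:C) alike, with summed levels of 386 to 406 CPM after SLR10 against 550 to 639 CPM in vehicle. In the same comparisons 19.2%, 19.4% and 17.3% of all genes fell, and 20.2%, 19.3% and 18.6% rose. B cell markers (10 genes) summed to 2009 to 2175 CPM after SLR10 and 2777 to 2800 CPM in vehicle, and neutrophil markers (10 genes) to 516 to 640 CPM and 176 to 177 CPM. Single B cell markers went both ways. Cr2 was at 82.2 to 87.5 CPM after SLR10 against 259 and 279 CPM in vehicle. Ms4a1 was higher, at 396 to 423 CPM against 341 and 368 CPM, and so was Pax5, at 63.4 to 71.3 CPM against 61.3 and 50.3 CPM. Red pulp macrophage markers (8 of 9 genes in the table) summed to 979 to 1065 CPM after SLR10, 1289 to 2325 CPM after pppNS, 1391 to 1600 CPM in vehicle and 1502 to 1752 CPM in naive spleens. Within this sum Slc40a1 was at 15.5 to 19.6 CPM after SLR10 against 213 and 290 CPM in vehicle. Spic was higher, at 89.6 to 93.7 CPM against 66.3 and 75.4 CPM. No defining marker of these lists was at 0 in any group, as whole spleen would give, and their part in the zinc finger results was not tested.

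Among the members that rose, Zfp365, a gene linked to genome stability whose translated sequence held no C2H2 match, changed most. It measured 1.26 and 1.31 CPM in vehicle and 1.14, 0.910 and 0.875 CPM in naive spleens. It reached 16.8, 15.1 and 16.3 CPM after SLR10, 14.8, 8.82 and 17 CPM after SLR14 and 19.3, 15.3 and 14.7 CPM after poly(I:C). Every treated library lay above every control library. The log2 difference from vehicle was 3.21 ± 0.35 (SE; limma, adjusted p = 6.69e-06) after SLR10, 2.93 after SLR14 and 3.23 after poly(I:C). After pppNS it measured 8.85, 2.76 and 4.37 CPM, again above all controls, and the difference was 1.57 ± 0.35 (limma, adjusted p = 0.0189). That last call was lost without vehicle replicate 1 (adjusted p = 0.156) or vehicle replicate 2 (0.161), with the difference at 1.55 and 1.59. It was the one member that rose after pppNS.

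Zfp697, a C2H2 gene, had the next rise after SLR10. It measured 1.29 and 1.03 CPM in vehicle, 0.643, 0.437 and 0.477 CPM in naive spleens, and 5.10, 7.22 and 6.23 CPM after SLR10. The SLR10 libraries lay well clear of both control groups, and the log2 difference from vehicle was 2.00 ± 0.22 (SE; limma, adjusted p = 8.70e-06). After SLR14 it was at 5.36, 5.49 and 4.35 CPM and after poly(I:C) at 5.22, 4.03 and 5.69 CPM, for differences of 1.74 and 1.71.

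Zfp281, a DNA-binding regulator known from pluripotent stem cells, measured 23.8 and 25.1 CPM in vehicle and 21.5, 19.4 and 17.1 CPM in naive spleens. It stood at 87.9, 90.4 and 82.7 CPM after SLR10, 101, 56.6 and 93.6 CPM after SLR14, and 130, 80.2 and 86.0 CPM after poly(I:C). Each treated library exceeded all controls, with SLR14 replicate 2 the lowest among them, and the log2 differences were 1.81 ± 0.25 (SE; limma, adjusted p = 6.15e-05), 1.71 and 1.96. After pppNS it measured 39.4, 26.8 and 30.5 CPM, above both vehicle libraries, and the difference of 0.37 did not pass (limma, adjusted p = 0.354).

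Zfp800, Zfp513 and Zfp213 completed the 6 largest rises. Zfp800 went from 22.6 and 22.1 CPM in vehicle to 70.4, 69.4 and 64.2 CPM after SLR10, a log2 difference of 1.58 ± 0.24 (SE; limma, adjusted p = 0.000139). Zfp513 went from 24.4 and 24.3 CPM to 70.5, 76.9 and 76.4 CPM, a difference of 1.59 ± 0.19 (limma, adjusted p = 1.64e-05). In both genes the SLR10 libraries lay far above vehicle and naive libraries, whose highest values were 22.6 and 29.8 CPM. Zfp213, the KRAB gene with the ISRE match printed above, went from 7 and 7.13 CPM in vehicle and 8.39, 9.66 and 8.64 CPM in naive spleens to 20.5, 20.4 and 21.9 CPM after SLR10, a difference of 1.5 ± 0.16 (limma, adjusted p = 6.35e-06). It reached 19.9, 18.7 and 18.7 CPM after SLR14 and 18.5, 21.4 and 20.4 CPM after poly(I:C), and no library of these 3 groups overlapped a control. After pppNS it was at 9.76, 8.70 and 6.33 CPM, a spread that spanned the controls.

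The other KRAB genes that rose after SLR10 were Zfp1 (1.43), Zfp455 (1.03), Zfp202 (0.76), Zfp952 (0.64) and Zfp90 (0.40), given as log2 differences and chosen here after their values were seen.

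**Figure D4:**
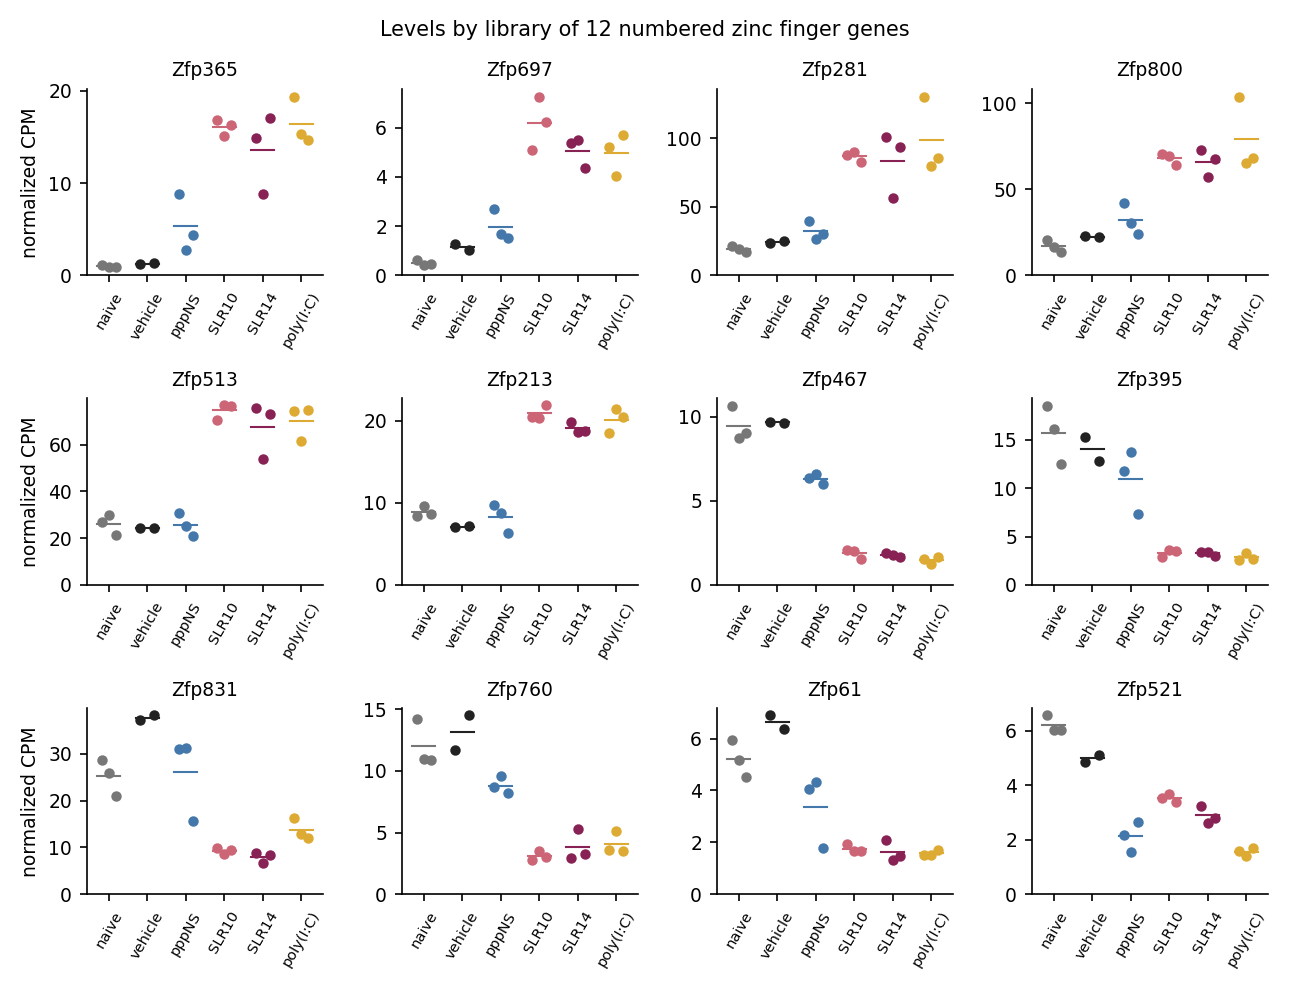
Normalized CPM in each library for 12 of the members with the largest changes, on axes that start at 0; points are libraries and bars are group means. The first 6 genes are high and the next 5 low after SLR10, SLR14 and poly(I:C) relative to vehicle, and Zfp521 is lowest after poly(I:C), at 1.4 to 1.69 CPM.

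Zfp467, a C2H2 transcription factor studied in bone and fat cell fate, fell furthest. It measured 9.69 and 9.65 CPM in vehicle and 10.6, 8.73 and 9.01 CPM in naive spleens. It dropped to 2.09, 2.01 and 1.51 CPM after SLR10, 1.87, 1.81 and 1.68 CPM after SLR14, and 1.55, 1.27 and 1.65 CPM after poly(I:C). All 9 of these libraries lay far below every control library. The log2 differences from vehicle were -2.11 ± 0.16 (SE; limma, adjusted p = 3.14e-07), -2.15 and -2.36. After pppNS the levels were 6.38, 6.58 and 6.01 CPM, below every control library, and the difference of -0.58 did not pass (limma, adjusted p = 0.0576).

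Zfp395, which encodes a DNA-binding protein with few fingers, measured 15.3 and 12.8 CPM in vehicle and 18.5, 16.1 and 12.5 CPM in naive spleens, and 2.90, 3.64 and 3.46 CPM after SLR10. The SLR10 libraries were all far below the controls, with a log2 difference of -1.93 ± 0.24 (SE; limma, adjusted p = 2.06e-05), and SLR14 (-1.94) and poly(I:C) (-2.11) were alike in direction and call. Zfp831 measured 37.1 and 38.1 CPM in vehicle, 28.7, 25.8 and 21 CPM in naive spleens and 9.79, 8.71 and 9.43 CPM after SLR10. Its vehicle libraries stood above the naive ones, and both stood above SLR10, with a difference from vehicle of -1.96 ± 0.26 (limma, adjusted p = 3.47e-05). After poly(I:C) it was less low, at 16.3, 13.0 and 12.1 CPM (-1.43).

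Zfp760 and Zfp61 had the largest falls among the KRAB genes after SLR10. Zfp760, on chromosome 17 (GRCm38, 21707741 to 21725636, plus strand), with 16 fingers, measured 11.7 and 14.5 CPM in vehicle, 14.2, 11 and 10.9 CPM in naive spleens and 2.79, 3.52 and 3.06 CPM after SLR10. The log2 difference from vehicle was -1.91 ± 0.23 (SE; limma, adjusted p = 1.79e-05), with no overlap between treated and control libraries. Zfp61, on chromosome 7 with 8 fingers, measured 6.90 and 6.38 CPM in vehicle, 5.93, 5.18 and 4.53 CPM in naive spleens and 1.94, 1.66 and 1.66 CPM after SLR10. Its difference was -1.66 ± 0.27 (limma, adjusted p = 0.000213), and after SLR14 and poly(I:C) it was -1.76 and -1.78.

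Zfp704 fell by 1.66 ± 0.34 on the log2 scale after SLR10 (SE; limma, adjusted p = 0.00134) from 4.71 and 6.41 CPM in vehicle to 1.21, 1.57 and 1.44 CPM. After SLR14 it measured 1.22, 3.58 and 1.29 CPM, so the erythroid-rich replicate 2 stood apart, and its call there (-1.37; limma, adjusted p = 0.00525) was lost without vehicle replicate 2 (-1.16, adjusted p = 0.068). Zfp7, a KRAB gene on chromosome 15, and Zfp329 were among the 6 largest falls after poly(I:C), at -1.73 and -1.52. Zfp7 went from 10.4 and 10.9 CPM in vehicle to 3.39, 3.48 and 1.92 CPM, and Zfp329 from 25.0 and 25.9 CPM to 11, 8.71 and 6.53 CPM. Neither overlapped vehicle.

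Of the genes with an ISRE match, named for that match and not for their change, Zfp420 measured 7.40 and 7.65 CPM in vehicle and 4.29, 4.08 and 5.08 CPM after SLR10 (-0.69; limma, adjusted p = 0.0488), below all controls, with 4.55, 3.3 and 5.77 CPM after SLR14 (-0.70; adjusted p = 0.0474). Zfp169 measured 6.19 and 9.18 CPM in vehicle and 9.64, 9.35 and 7.99 CPM after SLR10 (0.24; limma, adjusted p = 0.805). Its lowest level was 0.818 CPM in pppNS replicate 3.

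In a fixed panel of 22 numbered genes with known roles, 3 rose and 0 fell after SLR10, 3 rose and 1 fell after SLR14, 5 rose and 1 fell after poly(I:C), and 0 rose and 1 fell after pppNS (limma). Of all genes, 20.2% rose and 19.2% fell after SLR10, and 19.3% and 19.4% after SLR14. The shares were 18.6% and 17.3% after poly(I:C) and 2.95% and 1.35% after pppNS. The gene that fell was Zfp521 in each case, by 0.70 on the log2 scale after SLR14 (a call lost under quantile scaling, limma adjusted p = 0.109) and by 1.42 after poly(I:C) (adjusted p = 2.29e-05). After SLR10 the genes that rose were Zfp281, Zfp800 and Zfp131, the last at 61.8, 60.9 and 66.9 CPM against 33.9 and 32.7 CPM in vehicle (0.92; adjusted p = 0.00112). After poly(I:C), Zfp91, which encodes a ubiquitin ligase, and Zfp217, a repressor that works with histone deacetylases, also rose, by 0.45 and 0.84. Both calls were lost without poly(I:C) replicate 2 (adjusted p = 0.064 and 0.060), vehicle replicate 1 (0.135 and 0.070) or vehicle replicate 2 (0.058 and 0.111), and under quantile scaling Zfp91 stood at -0.17. Zfp207, a spindle assembly factor, measured 155 and 160 CPM in vehicle and 158, 155 and 157 CPM after SLR10 (-0.01; limma, adjusted p = 0.958), although quantile scaling put it at -0.76 after SLR10, -0.70 after SLR14 and -0.77 after poly(I:C).

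The panel's genes for retroelement and imprint silencing passed no test. Zfp809, a KRAB gene that silences murine leukaemia virus, measured 9.84 and 13.3 CPM in vehicle and 12.5, 10.9 and 11.4 CPM after SLR10 (0.01; limma, adjusted p = 0.974). Zfp445, a KRAB gene that maintains imprinted methylation, measured 27.2 and 38.4 CPM in vehicle and 28.5, 29.1 and 25.1 CPM after SLR10 (-0.23; adjusted p = 0.906). Its controls spread widely, with 21.1, 8.61 and 1.33 CPM in naive spleens, and pppNS gave 31.6, 25.9 and 0.533 CPM. Its levels were 29.2, 19.6 and 22.6 CPM after SLR14 and 32.3, 21.4 and 22.3 CPM after poly(I:C).

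Partners of KRAB proteins were read from a fixed list. Of its 24 genes for KRAB co-repression and heterochromatin, 5 rose and 1 fell after SLR10, 6 rose and 2 fell after SLR14, 5 rose and 1 fell after poly(I:C), and 1 rose after pppNS. The share that rose after SLR10, 20.8%, was close to the 20.2% of all genes, and 4.17% fell, with 19.2% of all genes. Trim28, the scaffold that KRAB boxes bind, measured 95.5 and 72.6 CPM in vehicle and 137, 145 and 144 CPM after SLR10, a log2 difference of 0.77 ± 0.17 (SE; limma, adjusted p = 0.0027). Naive spleens were at 102, 123 and 121 CPM, so the SLR10 libraries lay above both controls, by less over naive. Daxx, a histone chaperone gene known to respond to interferon, rose by 4.23 after SLR10. Mphosph8, a reader of heterochromatin in the HUSH complex, fell by 0.58 after SLR14 and by 0.73 after poly(I:C).

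Other zinc finger families were counted after SLR10, where 20.2% of all genes rose and 19.2% fell; differences between families were not tested. Of 38 Zbtb genes, which pair a BTB domain with C2H2 fingers, 8 rose (21.1%) and 3 fell (7.89%). Of 17 Zkscan and Zscan genes, which carry a SCAN domain, 2 rose (11.8%) and 3 fell (17.6%), and of 14 Zc3h genes, whose CCCH fingers bind RNA, 6 rose (42.9%) and 0 fell. Zfp36, left out of the members, encodes a CCCH protein that promotes decay of cytokine mRNAs and went from a mean of 102 CPM in vehicle to 274 CPM after SLR10 (1.42).

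pppNS changed few members. Zfp365 rose, Zfp521 and Zfp422 fell, and 2.95% of all genes rose and 1.35% fell in that comparison (4.3% in all). Zfp521, a regulator of progenitor and B-lymphoid cells, measured 4.87 and 5.10 CPM in vehicle, 6.58, 6.02 and 6.02 CPM in naive spleens and 2.18, 1.57 and 2.67 CPM after pppNS. The pppNS libraries lay below all controls, with a log2 difference of -1.08 ± 0.17 (SE; limma, adjusted p = 0.00262), and the call was lost without vehicle replicate 2 (adjusted p = 0.0504). Zfp422, a small C2H2 gene, went from 21.9 and 23.4 CPM to 16.6, 15.6 and 12.1 CPM (-0.61 ± 0.16; limma, adjusted p = 0.0485), and its call was lost without pppNS replicate 3 (0.081), vehicle replicate 1 (0.213) or vehicle replicate 2 (0.373).

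The members as a group leaned lower after pppNS, mostly without passing. Of all 221 differences, those called included, 170 were negative, with a median of -0.31 against 0.04 in other genes of like level. By level, the medians were -0.51 against -0.19 at 3 to 5 CPM and -0.23 against 0.10 at 20 CPM or more. In the classes between, they were -0.28 against -0.06 (5 to 10 CPM) and -0.31 against 0.02 (10 to 20 CPM). pppNS replicate 3 held the lowest of 17 levels for 97 of the 221 genes (43.9%), against 22.1% of other genes of like level. Without that library the gap between members and other genes was -0.17 in place of -0.35. Without all 4 erythroid-rich libraries, 5 members rose (2.26%) and 14 fell (6.33%) after pppNS, while 13.1% of other genes of like level rose and 3.24% fell. Without 1 library the falls numbered 10 (pppNS replicate 2), 4 (pppNS replicate 1), 1 (pppNS replicate 3 or vehicle replicate 1) or 0 (vehicle replicate 2), and without either vehicle library no member rose.

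The RNAs were also compared with one another. SLR14 and SLR10, which differ in stem length, gave 0 members higher and 0 lower by limma, edgeR and DESeq2, with 0 members at an unadjusted p under 0.05 and 0.0% of all genes called in either direction. By libraries that do not overlap, SLR14 lay above SLR10 in 5 members and below in 17, with 4.54% and 4.51% of all genes. The 95% interval of the difference lay within 2-fold for 202 of the 221 genes (91.4%), so for the other 19 a 2-fold difference was within the interval. The median difference was -0.06 for the members and -0.01 for other genes of like level.

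poly(I:C) and the SLRs differed in 3 members, 2 higher and 1 lower, where 1.86% and 1.66% of all genes were called (3.51% in all). By libraries that do not overlap, 7 members lay above and 9 below, with 6.61% and 7.63% of all genes. Zfp608, a gene with a role in thymocyte development, measured 40.4, 26.3 and 28.7 CPM after poly(I:C), 13.2, 12.4 and 14.0 CPM after SLR10 and 11.9, 9.58 and 12.7 CPM after SLR14. All 3 poly(I:C) libraries lay above all 6 SLR libraries, a log2 difference of 1.32 ± 0.20 (SE; limma, adjusted p = 0.00332). Vehicle stood at 25.0 and 24.1 CPM and naive at 20.2, 14.9 and 11.7 CPM, so the SLR10 libraries were below vehicle (-0.87; adjusted p = 0.017) and the poly(I:C) libraries were not called against it (0.34; adjusted p = 0.341).

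Zfp521 was lower after poly(I:C), at 1.58, 1.4 and 1.69 CPM, than after SLR10, at 3.52, 3.67 and 3.38 CPM, or SLR14, at 3.25, 2.63 and 2.80 CPM, a log2 difference of -0.85 ± 0.13 (SE; limma, adjusted p = 0.00386). The groups did not overlap. Zfp90, a KRAB gene, was higher after poly(I:C), at 28.1, 25.5 and 24.2 CPM, than after SLR10, at 18.8, 18.7 and 19 CPM, or SLR14, at 19.1, 15.7 and 18.8 CPM (0.49 ± 0.12; limma, adjusted p = 0.0343). That call was lost without any of 7 single libraries, with adjusted p from 0.0583 to 0.119: SLR10 replicates 1, 2 and 3, SLR14 replicate 1 and poly(I:C) replicates 1, 2 and 3. Without SLR14 replicate 2 and poly(I:C) replicates 2 and 3 together, the adjusted p was 0.0614 for Zfp608, 0.167 for Zfp521 and 0.274 for Zfp90 (limma). With pppNS replicate 3 also left out, it was 0.00405, 0.0231 and 0.0459 in the same order, with 1 poly(I:C) spleen in each case. The counts moved too: 4 members were higher without poly(I:C) replicate 1, 1 was higher without each of the other 6 libraries named for Zfp90, and 4 were lower without SLR14 replicate 2 or poly(I:C) replicate 1.

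pppNS and the SLRs differed in 74 members, 29 higher and 45 lower after pppNS, where 22.1% and 22.8% of all genes were called (44.9% in all). By libraries that do not overlap, 26 lay above and 33 below, with 15.8% and 19.3% of all genes. Without pppNS replicate 3, 44 members were higher and 29 lower. By structure, 15 KRAB genes were higher and 15 lower, and 8 C2H2 genes without KRAB were higher and 23 lower. Zfp467 (1.55 ± 0.12) and Zfp395 (1.55 ± 0.18), which fell after the SLRs, were higher after pppNS than after the SLRs, and Zfp365 was lower (-1.5 ± 0.27; limma, adjusted p = 0.000546). For Zfp365 1 pppNS library, at 8.85 CPM, overlapped the lowest SLR library, at 8.82 CPM.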

How the data were processed

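RNA was sequenced from 17 spleens as stranded mRNA libraries made from total RNA. The submitters' processing notes name TopHat2 2.0.6, SAMtools 1.4, FastQC, edgeR and HTSeq, and give the build as mm10 (GRCm38), with no roles. The deposited values are signal, titled edgeR-normalized CPM by the authors; each column holds whole multiples of 1 step, as reads divided by a scaled library size would, and some columns sum to more than plain CPM could. Of 39184 lines, 5 without a name, 699 with a spreadsheet error as name, 27 with date-like names and 113 repeats of 87 names were left out. The 5 lines without a name alone held 28.1% to 46.1% of reads per library. Whole reads were recovered from the deposited values (100.0% within 0.01 reads), and edgeR 4.0.16 on them called 5375 genes for SLR10 against vehicle, where limma called 5520.

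The test was limma 3.58.1 (with trend) in R 4.3.3 on log2(CPM + 0.5), all 6 groups in 1 fit, over genes with at least 1 CPM in 2 libraries, with Benjamini-Hochberg adjustment over all 14012; fold changes on this scale understate the change of low genes. DESeq2 1.42.0 was an alternative. Simulated counts for SLR10 against vehicle (14012 genes) held 50 changed genes at each fold. The test found 12% of 2-fold, 54% of 3-fold and 80% of 4-fold changes, and 8.75% of calls were unchanged genes. Far more genes were called in the data (5520), which makes the adjusted threshold less strict, so these shares do not carry over to it. Positions and coding sequences came from GENCODE vM21 (GRCm38), in place of a protein table; fingers were counted by the C2H2 spacing and the KRAB box with a profile built from 216 windows (E-value up to 0.001).

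The members and gene lists were chosen with earlier results of these data known. Named members are the 6 largest rises and falls among called genes without overlap in each comparison with vehicle, a panel of 22, and up to 3 called in each other comparison; of 37 so named, 12 share exons with a gene on the other strand and 2 with one on the same strand, and the strand setting of counting is not given in the sources used here.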

Additional observations from a re-analysis of the deposited data

Results flagged for a closer look

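Some members differed between treatments by a direct test of the difference, in shares under those of all genes. Between poly(I:C) and the SLRs, 3 of 221 members were called (limma; 3.51% of all genes): Zfp608 (1.32), Zfp521 (-0.85) and Zfp90 (0.49), as log2 differences. Between pppNS and the SLRs, 74 of 221 members were called, 13.1% higher and 20.4% lower (22.1% and 22.8% of all genes), with Zfp467 (1.55), Zfp395 (1.55) and Zfp365 (-1.50) the largest.

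Reads outside the comparisons also differed between libraries. The 5 lines without a gene name took a median of 37.8% of reads in the 12 RNA-treated libraries (33.7% to 46.1%). The highest share, 46.1%, was in pppNS replicate 3, and the next, 40.4%, in SLR14 replicate 3. In the 5 control libraries they took 28.1% to 31.9%. What these lines count is not given in the sources used here, so they are not read as gene expression.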

How the results depend on the processing

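Counts of members called moved by more than 1.5 times in 71 cases and stayed within that in 259. Calls of other genes moved with the fit as well, and the share of all genes called is not given for most fits below. A changed count is therefore not a result about the members alone. The gap between the members' median and that of other genes of like level stayed negative under each setting run for SLR14, poly(I:C) and pppNS against vehicle, and for SLR10 it turned to 0.013 with naive spleens as the control. This gap is not matched by level within the shared range, as stated above. With naive spleens as the control, 43 members rose after SLR10, 40 after SLR14, 36 after poly(I:C) and 6 (8 fell) after pppNS, KRAB rises numbered 12, 11 and 13, and the SLR14 gap was -0.016. With naive and vehicle pooled, 37 rose after SLR10, 34 after SLR14 and 4 (15 fell) after pppNS, and KRAB rises numbered 10, 9 and 12. With only the groups compared in the fit, SLR10 gave 45 rises and 90 falls (KRAB 12 and 56), pppNS 0 and 0, and poly(I:C) against the SLRs 4 and 2. For members of at least 10 CPM, 16 fell after SLR10, 15 after SLR14 and 13 after poly(I:C), pppNS gave 0 and 1, poly(I:C) against the SLRs 0 lower, and pppNS against the SLRs 6 higher. With genes filtered at a mean of 5 CPM, KRAB falls were 20, 19 and 17, 31 members fell after poly(I:C) and 1 after pppNS, 0 were lower after poly(I:C) than after the SLRs, and 18 higher after pppNS.

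Without SLR14 replicate 2 and poly(I:C) replicates 2 and 3, 30 members fell after poly(I:C) (KRAB 17, gap -0.095), pppNS gave 3 rises and 10 falls, and poly(I:C) against the SLRs 0 and 0. With pppNS replicate 3 also left out, an alternative chosen after seeing the data, SLR10 gave 36 and 80 (KRAB 11 and 52), 31 rose after SLR14 (KRAB 10), 32 after poly(I:C) (KRAB 11, gap -0.095), pppNS gave 5 and 14 (gap -0.17), vehicle against naive 27 and 1, poly(I:C) against the SLRs 4 higher, and pppNS against the SLRs 55 higher.

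By tool and scaling, DESeq2 gave 15 falls after pppNS and 4 members lower after poly(I:C) than after the SLRs; edgeR gave 1 fall and 1 higher. Median-of-ratios scaling gave 5 falls after pppNS and 1 higher after poly(I:C) than the SLRs. Quantile scaling, which moved the median of all genes against vehicle to between -0.10 and -0.07, gave 5, 1, and 17 higher after pppNS than the SLRs; it reversed Zfp207 after SLR14 (-0.70) and poly(I:C) (-0.77) and Zfp91 after poly(I:C) (-0.17). The falls after pppNS were 1 with no filter, 1 with a pseudocount of 0.1 and 8 with 2. A looser KRAB pattern gave 3 KRAB rises after SLR14. The cause of these moves was not tested.

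Replicate numbers gave no clear pairing of the samples: equal-numbered libraries of different groups correlated at a median of 0.03 in their deviations (15 of 40 pairs over 0.1). Libraries with unequal numbers gave -0.03 (27 of 80 pairs over 0.1). Equal-numbered pairs ranged from -0.52 to 0.80, and whether some libraries shared a batch was not tested. With the replicate block, 1 member fell after pppNS, 24 rose and 48 fell after SLR10, 20 and 48 after SLR14, and 22 and 41 after poly(I:C).

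Leaving out 1 library at a time gave 16 to 20 rises and 27 to 38 falls after SLR10, 14 to 19 and 27 to 46 after SLR14, 13 to 20 and 27 to 48 after poly(I:C), and 0 to 1 and 0 to 10 after pppNS. KRAB falls ran from 16 to 24, 14 to 28 and 16 to 29. poly(I:C) against the SLRs gave 1 to 4 in each direction, and pppNS against the SLRs 25 to 44 higher and 29 to 54 lower. The gap to other genes ran from -0.21 to -0.069 for SLR10, -0.30 to -0.092 for SLR14, -0.39 to -0.25 for poly(I:C), -0.43 to -0.17 for pppNS against vehicle and from -0.28 to 0.023 (without pppNS replicate 3) for pppNS against the SLRs. In simulated counts with 50 genes changed at each fold, most 2-fold changes were missed. Far more genes were called in the data, and changes under 2-fold passed there, such as Zfp110 after SLR10 (-0.38). The simulated share therefore does not carry over. With 2 vehicle libraries, a member that was not called may still differ.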
